A study of Homo sapiens with 9 samples.

Results

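Heat shock chaperones were followed through 10 genes: the transcription factor HSF1 and 9 genes of the stress response and of protein folding (HSPA6, HSPA1A, HSPA1B, HSPA8, HSP90AA1, DNAJB1, HSPH1, HSPB1 and BAG3). They are 10 of the 61209 genes counted, and all 10 were among the 16976 with enough counts to be tested. They were picked by symbol and role, and were chosen with earlier results of these libraries in view, and which of their values weighed in that choice is not recorded. Every level and fold change of the 10 is therefore a description and carries no p-value.

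The cells were GIST-T1, a human gastrointestinal stromal tumor line with the KIT genotype exon 11 del560-79, carried by all 3 groups. The 3 siERRα libraries (S4, S5 and S6) came from cells transfected with siRNA against ESRRA, the gene of estrogen-related receptor α (ERRα). The 3 imatinib libraries (S16, S17 and S18) came from cells given the non-target siRNA and 50 nM imatinib, an inhibitor of the KIT kinase, and the 3 siNC libraries (S1, S2 and S3) from cells given the non-target siRNA alone. RNA was taken at 48 h, all cells having been through transfection, and the design has neither untransfected cells nor knockdown combined with imatinib. Nothing in the labels says whether the 3 libraries of a group were separate cultures, so a p-value here measures the spread between libraries, which may be technical.

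Chaperones bind unfolded or partly folded proteins and keep them from aggregating while they fold. HSP70 proteins do so in cycles of ATP binding that J-domain proteins start and nucleotide exchange factors reset, and HSP90 takes over many clients at a late stage, among them numerous kinases. HSF1 is the main factor that switches on the inducible genes of this group: it is held inactive by chaperones, is released when unfolded proteins occupy them, and binds heat shock elements upstream of its targets. KIT carrying an activating mutation is a known client of HSP90.

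Library totals lay between 37527236 and 49363002 counts, with the 3 imatinib libraries at the low end (37527236 to 37915484). Levels are CPM, counts set to a common library size, after scaling by the trimmed mean of M values (TMM). ESRRA stood at 1.40, 0.757 and 1.34 CPM in siERRα cells, at 30.4, 32.0 and 35.6 CPM in imatinib cells and at 40.7, 44.7 and 40.9 CPM in siNC cells, so the knockdown libraries matched their label. KIT, ANO1, ETV1, PRKCQ and CD34, markers of this tumor, summed to 3352 to 3529 CPM in siERRα cells, 3353 to 3564 CPM in imatinib cells and 3202 to 3295 CPM in siNC cells. Within that sum the markers moved in both directions with imatinib: the log2 fold changes were 0.23 for KIT, 0.61 for ANO1, 0.55 for ETV1, 0.73 for PRKCQ and −0.37 for CD34. A list of 8 epithelial, leukocyte, endothelial and Schwann cell markers summed to 0.968 to 1.34, 1.67 to 1.94 and 1.23 to 1.55 CPM in the same order of groups. Mitochondrially encoded counts took 1.52% of the imatinib libraries against 0.925% of the siNC libraries, and their part in the results was not tested.

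The control regions of HSPA6, HSPA1A and HSPA1B are shown because these genes had the largest fold differences with imatinib and hold letters that HSF1 binds. A heat shock element consists of GAA units in alternating orientation, each a pair of bases from the next, and the shortest form searched was a pair of units, GAANNTTC or TTCNNGAA, which covers both strands because each is its own reverse complement. The windows (RefSeq, GRCh38.p14) run from 250 bases before to 50 bases after each transcript start, and 9 of the 10 genes matched in the table, with 12 windows (3 for DNAJB1 and 2 for HSP90AA1). The 250 bases before the start of HSPA6 (chr1:161524290-161524539, plus strand), HSPA1A (chr6:31815293-31815542, plus strand) and HSPA1B (chr6:31827488-31827737, plus strand) follow, with each pair of units in capitals.
HSPA6: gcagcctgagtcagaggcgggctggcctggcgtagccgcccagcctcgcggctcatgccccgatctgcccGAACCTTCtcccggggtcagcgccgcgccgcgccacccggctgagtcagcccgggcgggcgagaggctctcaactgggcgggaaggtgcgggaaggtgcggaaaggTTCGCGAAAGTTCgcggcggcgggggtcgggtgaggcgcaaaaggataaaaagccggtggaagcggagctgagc
HSPA1A: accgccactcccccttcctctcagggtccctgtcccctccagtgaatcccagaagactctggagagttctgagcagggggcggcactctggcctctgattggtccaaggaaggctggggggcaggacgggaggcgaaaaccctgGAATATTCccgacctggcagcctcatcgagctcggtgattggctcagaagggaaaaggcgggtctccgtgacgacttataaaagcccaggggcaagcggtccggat
HSPA1B: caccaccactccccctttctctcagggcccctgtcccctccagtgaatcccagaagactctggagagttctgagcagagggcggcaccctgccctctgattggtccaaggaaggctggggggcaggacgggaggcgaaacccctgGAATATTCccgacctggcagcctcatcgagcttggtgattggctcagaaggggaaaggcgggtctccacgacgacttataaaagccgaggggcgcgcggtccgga

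HSPA6 held pairs of units beginning 180, 74 and 69 bases before the start, and those at 74 and 69 overlap to make a run of 3 units. HSPA1A and HSPA1B each held a single pair, 106 and 105 bases before their starts, with the same letters inside a stretch that the genes share. Their windows were 92.0% identical (277 of 301 aligned columns). For the other genes only the stretch around the units is shown: HSPA8 upstream (chr11:123062339-123062381, minus strand) and near the start (chr11:123062164-123062206, minus strand), HSP90AA1 at its second start (chr14:102087090-102087147, minus strand), DNAJB1 at its second start (chr19:14518422-14518489, minus strand) and HSPB1 (chr7:76302476-76302513, plus strand).
HSPA8 upstream: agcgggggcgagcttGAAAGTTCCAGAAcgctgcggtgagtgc
HSPA8 near the start: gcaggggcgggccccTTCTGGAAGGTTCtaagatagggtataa
HSP90AA1: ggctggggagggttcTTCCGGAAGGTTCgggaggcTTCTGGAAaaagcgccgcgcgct
DNAJB1: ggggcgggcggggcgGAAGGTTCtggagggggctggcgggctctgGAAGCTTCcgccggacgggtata
HSPB1: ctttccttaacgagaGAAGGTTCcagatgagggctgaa

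A pair of units was found in 7 of the 9 genes, in all but HSPH1 and BAG3, and in 16.2% of the 27305 genes with a window (13.5% of 35116 windows). A run of 3 units, in which GAA and TTC alternate 2 bases apart, was found in HSPA6, HSPA8 and HSP90AA1, 3 of the 9 genes, and in 0.608% of all genes. A further DNAJB1 pair, in another of its windows, begins 1 base past the start of that window's transcript and is not shown. The run in HSPA8 occurs in 2 places, beginning 230 and 55 bases before the start. The letters AAGGTCA, the core that ERRα and related receptors bind, searched on both strands, were in none of the 9 genes' windows and in 4.80% of all genes. These are matches of letters and not measured binding, and their relation to the fold changes given below was not tested. With imatinib, HSPA6, HSPA8 and HSP90AA1, with 3 units, had −2.81, −0.30 and −0.28 on the log2 scale. HSPA1A, HSPA1B, DNAJB1 and HSPB1, with pairs only, had −1.26, −1.23, −0.54 and 0.09. HSPH1 and BAG3, with none found in their windows, had −0.66 and −0.78.

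**Figure D1:**
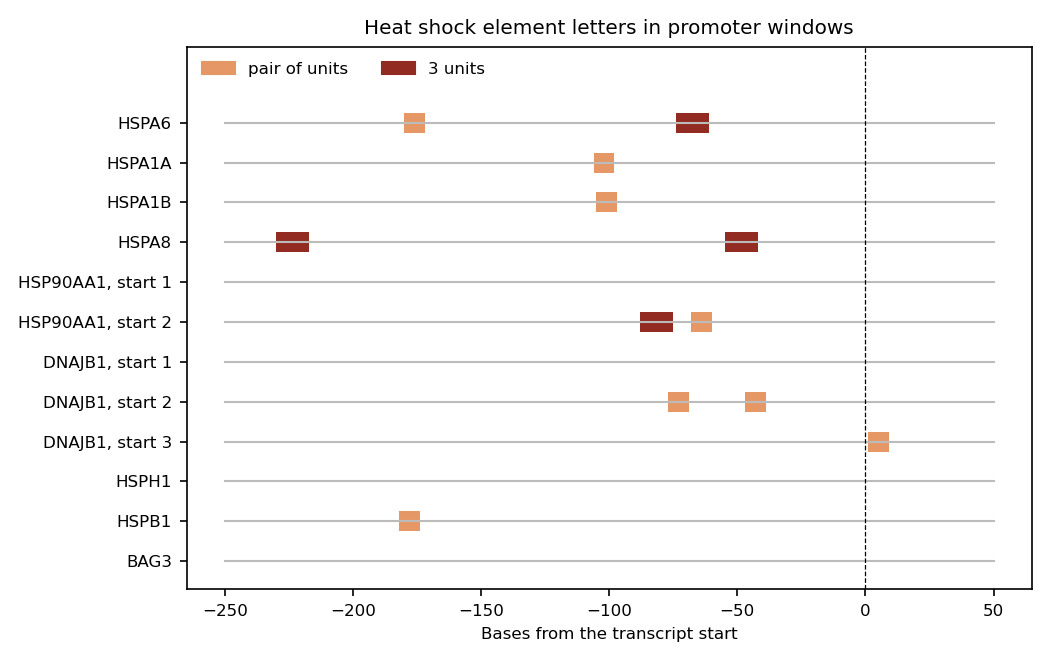
Position of heat shock element letters in the promoter windows of 9 genes, in bases from the transcript start (dashed line); each grey line is a window, orange boxes are pairs of units and dark red boxes runs of 3 units. HSPA6, HSPA8 and the second HSP90AA1 start hold a run of 3 units, and no pair of units was found in the windows of HSPH1 and BAG3.

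The 10 genes ranged in log2 fold change between −2.81 and 0.09 for imatinib against siNC and between −1.13 and 0.26 for siERRα against siNC. The 10 genes together took 0.715% ± 0.0398 of all counts in siERRα cells, 0.564% ± 0.0113 in imatinib cells and 0.752% ± 0.0207 in siNC cells (SD, n = 3 each). In bulk RNA, fewer expressing cells and less RNA per cell cannot be told apart. With imatinib the largest fold differences were those of HSPA6, then HSPA1A and HSPA1B, the stress-inducible HSP70 genes, and HSF1 and HSPB1 were the exceptions to the lower levels with imatinib.

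**Figure D2:**
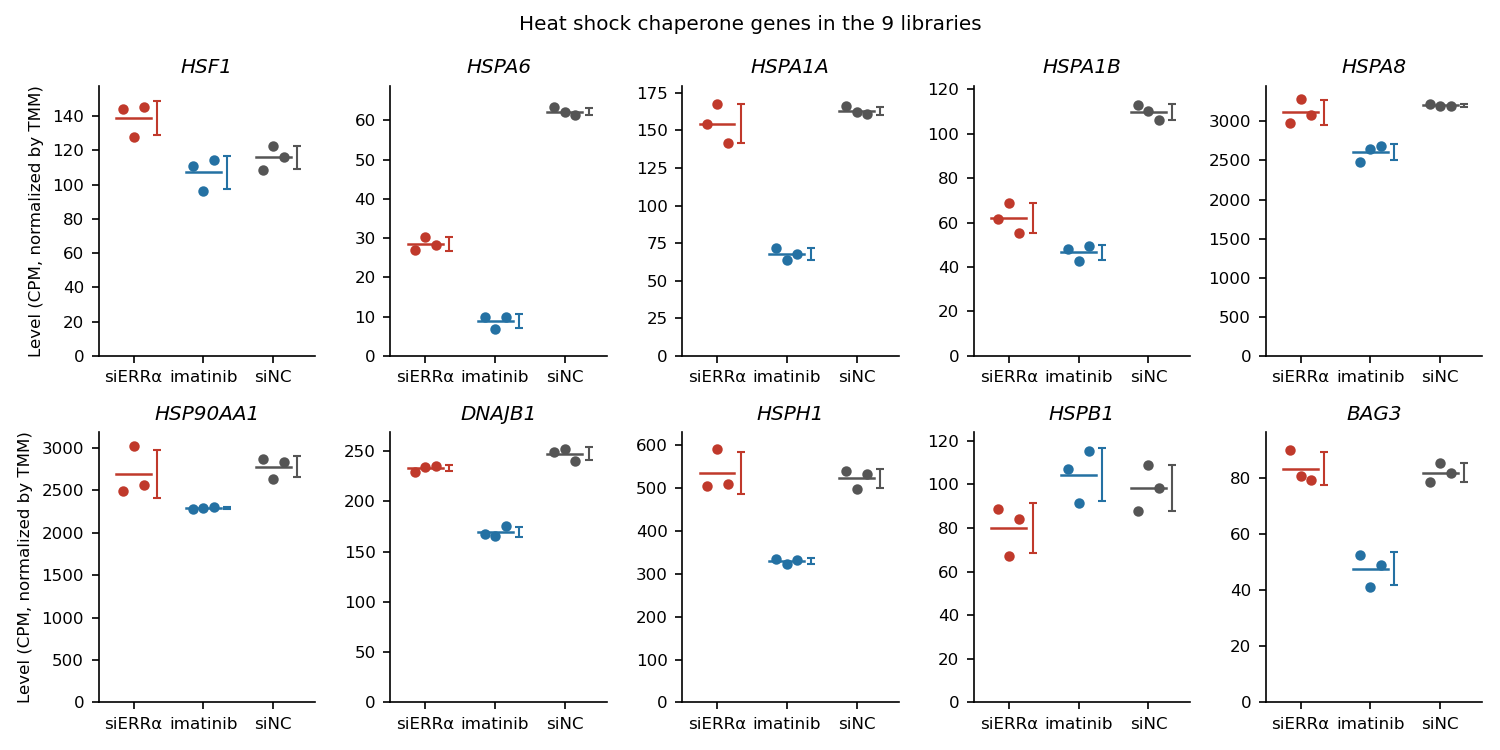
Level of each gene (CPM, TMM scaled, linear axis from 0) in the 3 siERRα, 3 imatinib and 3 siNC libraries; points are libraries, horizontal lines means and side bars 1 SD. HSPA6 lay at 26.9 to 30.3 CPM in siERRα cells and 6.82 to 9.89 CPM in imatinib cells, below the 61.3 to 63.3 CPM of siNC cells.

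HSF1, the regulator itself, had 144, 127.6 and 145 CPM in siERRα cells, 111, 96.3 and 114 CPM in imatinib cells and 109, 122 and 116 CPM in siNC cells. Every siERRα library lay above every siNC library, while the imatinib and siNC libraries overlapped. The log2 fold change was 0.26 (SE 0.071) for siERRα against siNC, −0.11 (SE 0.072) for imatinib against siNC and 0.37 (SE 0.072) for siERRα against imatinib. The mRNA level says nothing of how much HSF1 protein was active, since the factor is controlled after translation.

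HSPA6 encodes HSP70B′, an HSP70 found in humans and absent from mice that is scarcely made in unstressed cells. It is a single-exon gene (GRCh38 chromosome 1, 161524540 to 161526894, plus strand). It stood at 26.9, 30.3 and 28.3 CPM in siERRα cells, at 9.84, 6.82 and 9.89 CPM in imatinib cells and at 63.3, 62.1 and 61.3 CPM in siNC cells. The 3 groups did not overlap: siERRα cells had 45.8% and imatinib cells 14.2% of the siNC mean. The log2 fold changes were −1.13 (SE 0.092) for siERRα against siNC, −2.81 (SE 0.103) for imatinib against siNC and 1.69 (SE 0.103) for siERRα against imatinib. HSPA7, a nearby pseudogene with a transcript of 1927 bases, matched the 2355-base transcript of HSPA6 at 1899 of its bases (98.5%) and averaged 0.705, 0.452 and 1.13 CPM in siERRα, imatinib and siNC cells, and reads shared between HSPA6 and HSPA7 cannot be assigned with certainty.

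HSPA1A and HSPA1B are single-exon neighbors in the major histocompatibility region (GRCh38 chromosome 6, 31815543 to 31817946 and 31827738 to 31830254, both plus strand) and encode the main inducible HSP70. Their coding sequences were 99.8% identical (1922 of 1926 bases) and their 5′ UTRs 87.9%. Their 3′ UTRs, of 260 and 378 bases, were 47.8% identical (184 of 385 aligned columns), the matches covering 70.8% of the shorter one. How reads that map to both genes were handled is not given in the sources used here, so the level of either gene alone is uncertain. HSPA6 is more distant, at 80.6% identity to HSPA1A in the coding sequence.

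HSPA1A stood at 155, 167 and 141 CPM in siERRα cells, at 72.1, 63.9 and 67.6 CPM in imatinib cells and at 166, 162 and 161 CPM in siNC cells. Every imatinib library lay below the others, and the siERRα libraries lay around those of siNC, at 94.7% of the siNC mean. Its log2 fold change was −0.08 (SE 0.064) for siERRα against siNC, −1.26 (SE 0.066) for imatinib against siNC and 1.19 (SE 0.066) for siERRα against imatinib. HSPA1B had 61.8, 68.7 and 55.3 CPM in siERRα cells, 48.0, 42.9 and 49.3 CPM in imatinib cells and 113, 110.3 and 106 CPM in siNC cells. Here both the siERRα and the imatinib libraries lay below every siNC library, at 56.4% and 42.5% of the siNC mean. The log2 fold changes of HSPA1B were −0.82 (SE 0.074), −1.23 (SE 0.076) and 0.41 (SE 0.076) for the same 3 comparisons.

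In the counts assigned to each gene, the pair therefore kept its proportions with imatinib but not after knockdown. Whether the assignment of shared reads had a part in this was not tested. HSPA1A had 2.50, 2.44 and 2.56 counts for each HSPA1B count in siERRα cells, 1.504, 1.490 and 1.372 in imatinib cells and 1.47, 1.47 and 1.52 in siNC cells. The share of HSPA1B in the pair was 28.6% ± 0.492 in siERRα cells, 40.8% ± 1.23 in imatinib cells and 40.2% ± 0.470 in siNC cells (SD, n = 3 each). The siERRα libraries did not overlap the others in this ratio. Adding the 2 genes sets aside which copy a counted read was assigned to, but does not recover shared reads if those were left uncounted. The sum of the pair reached 216 ± 19.7 CPM in siERRα cells, 115 ± 6.94 CPM in imatinib cells and 273 ± 5.93 CPM in siNC cells. The log2 fold change of the sum was −0.33 (SE 0.065) for siERRα against siNC, −1.25 (SE 0.066) for imatinib against siNC and 0.92 (SE 0.066) for siERRα against imatinib.

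**Figure D3:**
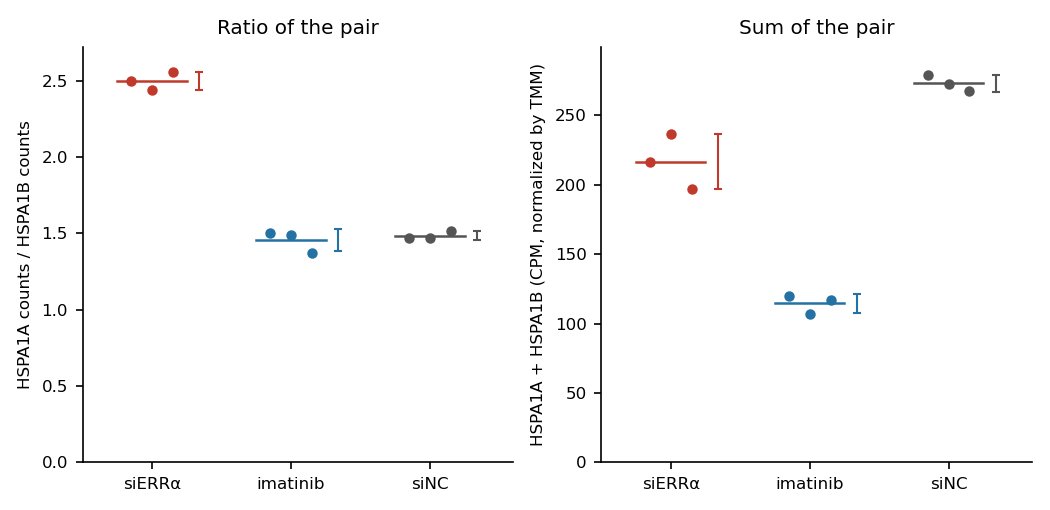
Left, HSPA1A counts divided by HSPA1B counts; right, the summed level of the pair (CPM, TMM scaled), both on linear axes from 0, for the siERRα, imatinib and siNC libraries (points), with means and 1 SD. The ratio was 2.44 to 2.56 in siERRα cells and 1.37 to 1.52 in the other 6 libraries.

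The chaperones that unstressed cells make in quantity had by far the most counts. HSPA8, HSP90AA1 and HSPB1 have processed pseudogenes elsewhere in the genome, and reads shared with them cannot be assigned with certainty. HSPA8, the HSP70 that cells make at all times (chromosome 11, 123057489 to 123063230, minus strand), had 2975, 3281 and 3087 CPM in siERRα cells, 2487, 2644 and 2682 CPM in imatinib cells and 3228, 3196 and 3196 CPM in siNC cells. Its imatinib libraries lay below all others, with log2 fold changes of −0.04 (SE 0.053), −0.30 (SE 0.053) and 0.26 (SE 0.053) for siERRα against siNC, imatinib against siNC and siERRα against imatinib. HSP90AA1, the stress-responsive form of cytosolic HSP90 (chromosome 14, 102080742 to 102139699, minus strand), had 2495, 3022 and 2562 CPM in siERRα cells, 2275, 2297 and 2299 CPM in imatinib cells and 2871, 2633 and 2835 CPM in siNC cells. Library S5 was the highest of the 9 for both HSPA8 and HSP90AA1, and for HSP90AA1 the log2 fold changes were −0.05 (SE 0.064), −0.28 (SE 0.064) and 0.23 (SE 0.064).

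Among the 10 genes, the HSP70 cochaperones DNAJB1, HSPH1 and BAG3 differed more with imatinib than HSPA8 did. DNAJB1, the J-domain protein known as HSP40 (chromosome 19, 14514769 to 14560391, minus strand), had 229.8, 234.8 and 235.3 CPM in siERRα cells, 167, 166 and 176 CPM in imatinib cells and 249.6, 252 and 240.2 CPM in siNC cells. The siERRα libraries lay just below those of siNC without overlap, and the imatinib libraries lay well below both, with log2 fold changes of −0.08 (SE 0.051), −0.54 (SE 0.051) and 0.46 (SE 0.051). HSPH1, or HSP110, a nucleotide exchange factor that works with HSP70 to take aggregates apart (chromosome 13, 31134973 to 31162388, minus strand), had 506, 592 and 510.1 CPM in siERRα cells, 335, 323 and 333 CPM in imatinib cells and 539, 498 and 532 CPM in siNC cells. Its log2 fold changes were 0.04 (SE 0.061), −0.66 (SE 0.062) and 0.70 (SE 0.062), and the siERRα and siNC libraries overlapped.

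BAG3, an exchange factor that links HSP70 to small heat shock proteins and to autophagy (chromosome 10, 119651380 to 119677819, plus strand), had 89.9, 80.6 and 79.0 CPM in siERRα cells, 52.6, 41.1 and 48.9 CPM in imatinib cells and 78.5, 85.2 and 81.6 CPM in siNC cells. Only the imatinib libraries stood apart, at 58.1% of the siNC mean, with log2 fold changes of 0.03 (SE 0.077), −0.78 (SE 0.079) and 0.81 (SE 0.079). HSPB1, or HSP27, a small heat shock protein that holds unfolded proteins without ATP (chromosome 7, 76302673 to 76304295, plus strand), had 88.5, 67.1 and 84.3 CPM in siERRα cells, 107, 91.5 and 115 CPM in imatinib cells and 87.7, 109 and 98.3 CPM in siNC cells. It had the largest standard errors of the 10, and it alone was lower in siERRα than in imatinib cells, with log2 fold changes of −0.30 (SE 0.106) for siERRα against siNC, 0.09 (SE 0.106) for imatinib against siNC and −0.39 (SE 0.106) for siERRα against imatinib.

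**Figure D4:**
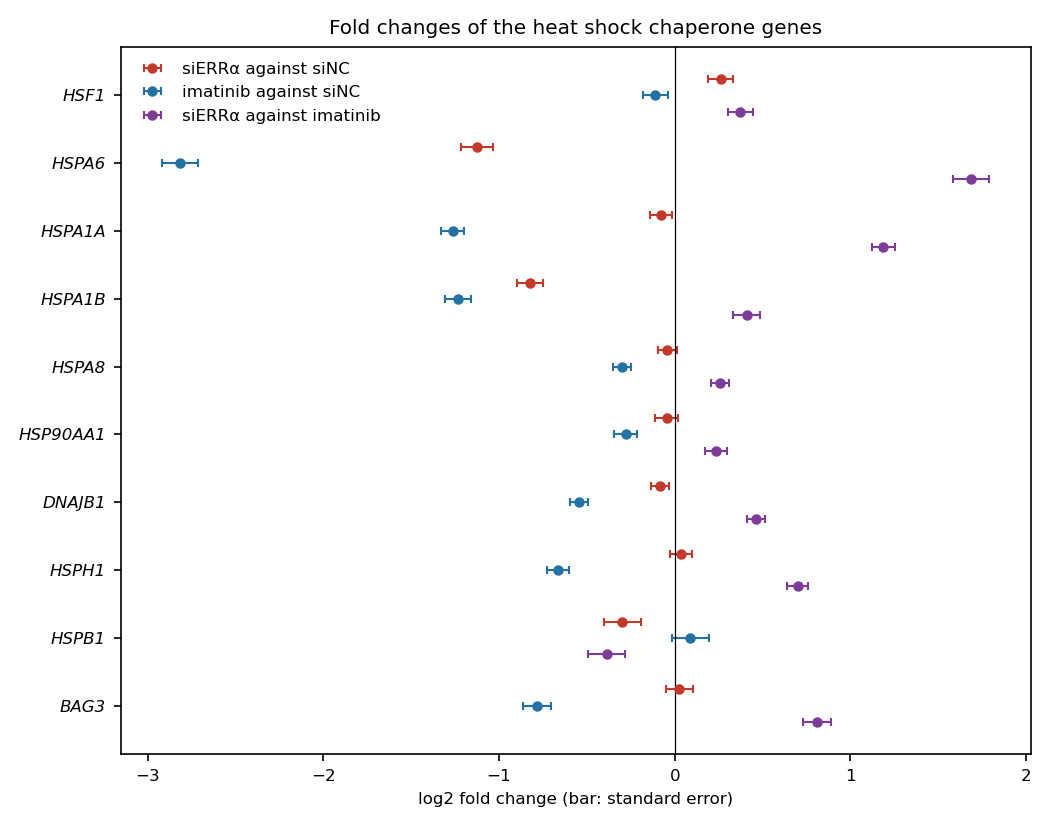
log2 fold change of each gene with its standard error (bars) for siERRα against siNC, imatinib against siNC and siERRα against imatinib. HSPA6 reached −2.81 with imatinib and −1.13 after knockdown, and the remaining values after knockdown lay between −0.82 (HSPA1B) and 0.26 (HSF1).

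Set per kilobase of the canonical transcript, the levels in siNC cells fell in the order HSPA8 (1416 CPM per kilobase), HSP90AA1 (861), HSPB1 (126), DNAJB1 (110.4), HSPH1 (99.7), HSPA1A (67.9), HSF1 (54.3), HSPA1B (43.6), BAG3 (31.9) and HSPA6 (26.4). Neighbors in this order did not overlap over the 3 libraries, the closest being HSPB1, whose lowest library reached 112.8, and DNAJB1, whose highest reached 112.6 CPM per kilobase. In imatinib cells HSF1 (50.2 CPM per kilobase) stood above HSPA1A (28.3), BAG3 and HSPA1B were both at 18.6, and HSPA6 was at 3.76. In siERRα cells HSPB1 (102.9), DNAJB1 (104.0) and HSPH1 (102.2 CPM per kilobase) lay within each other's spread, and HSPA6 was at 12.1. If reads shared with a near copy were left uncounted, the values per kilobase are too low, most of all for HSPA1A and HSPA1B. The places of such genes in these orders are therefore uncertain.

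Counted at an adjusted p below 0.05 in edgeR's quasi-likelihood test, 1 of the 10 genes was higher (HSF1) and 2 were lower (HSPA6 and HSPA1B) in siERRα than in siNC cells, where 11.4% of all genes tested were higher and 12.6% lower. For imatinib against siNC, 0 were higher and 8 lower, all but HSF1 and HSPB1, where 21.4% of all genes were higher and 20.3% lower. For siERRα against imatinib, 9 were higher and 1, HSPB1, was lower, where 25.6% of all genes were higher and 26.6% lower. Groups did not overlap for 4, 8 and 10 of the 10 genes in these 3 comparisons, and for 38.6%, 52.0% and 56.9% of all genes. The median log2 fold change of the 10 was −0.06, −0.60 and 0.43, with that of all genes at 0.01, 0.00 and −0.00. The genes were chosen with such results in view, so nothing is read from these counts, and both comparisons with siNC rest on the same 3 siNC libraries. HSF1 was no longer called in siERRα cells without siNC library S1 or S3 or siERRα library S6, and HSPB1 was called lower there without siNC S1, siERRα S4 or imatinib S17 and with 5 other settings.

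A wider look at the chaperone network used 101 further genes in 8 lists, of which 95 had enough counts. Like the 10 genes, the lists were chosen with earlier results of these libraries known, so the shares of all genes beside them are given as a description and the adjusted p-values are not independent support. After knockdown 11 rose and 11 fell, 11.6% each way, next to 11.4% and 12.6% of all genes, and the median was 0.01 on the log2 scale. The count that rose was 7 without siNC S2 and 7 without siNC S3, when 11 and 10 fell in that order. Of all genes, 1592 and 1163 then rose, compared with 1931 with all libraries. At a log2 difference of at least 0.5 the count of these chaperone genes that rose was 0, with 4 lower. With imatinib 13 rose and 53 fell, or 55.8% of those tested next to 20.3% of all genes, with a median of −0.24 next to 0.00, and without siNC S3 the count that rose was 8. In siERRα cells 52 were higher and 12 lower than in imatinib cells, with a median of 0.25. Adjusted p-values in the following sentences are from edgeR's quasi-likelihood test over all genes tested.

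**Figure D5:**
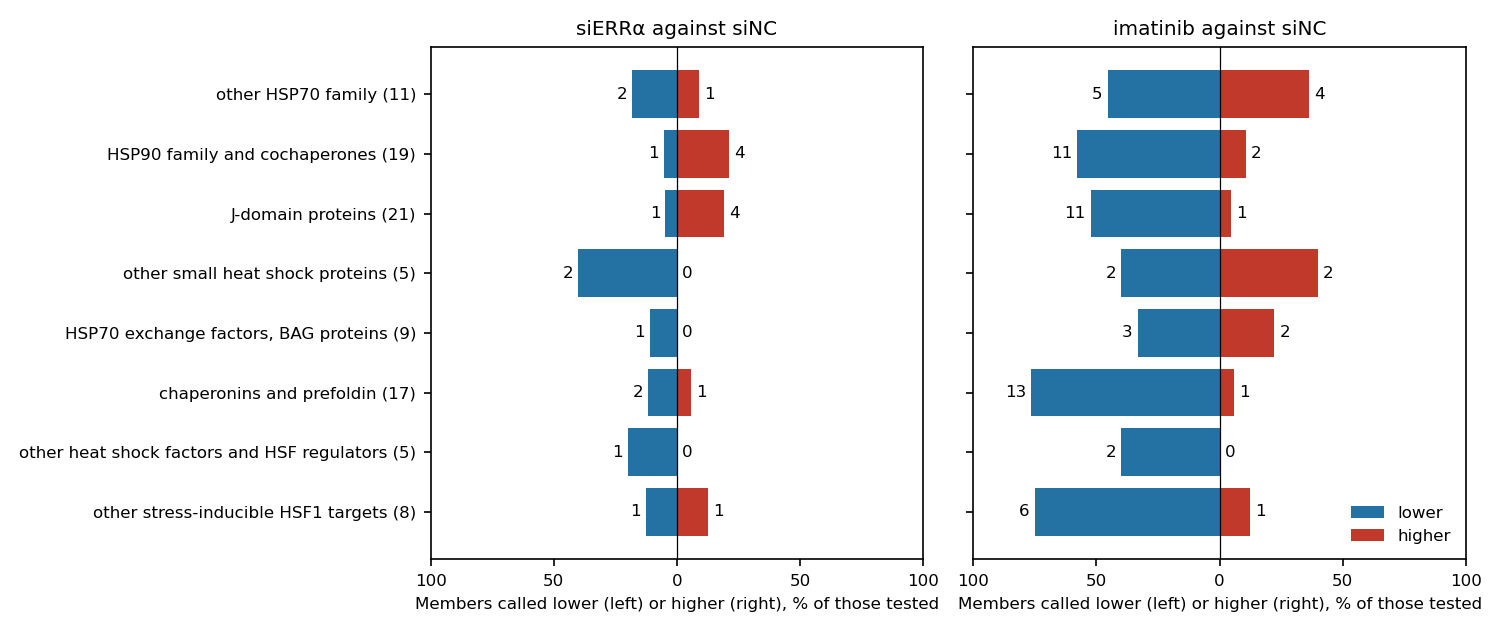
Share of the tested genes of each chaperone list called lower (left, blue) or higher (right, red) for siERRα against siNC and imatinib against siNC, in percent on linear axes, with the count beside each bar and the number tested in parentheses. With imatinib 13 of 17 chaperonin and prefoldin genes and 11 of 19 HSP90 family and cochaperone genes were lower.

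Among the other HSP70 genes 1 rose and 2 fell of 11 after knockdown, and 4 rose and 5 fell with imatinib. HSPA5, the HSP70 of the endoplasmic reticulum known as BiP, fell to 1078 ± 62.2 CPM in siERRα cells, with 1591 ± 26.3 CPM in imatinib cells and 1690 ± 48.3 CPM in siNC cells (SD, n = 3 each), with −0.65 on the log2 scale for siERRα against siNC (adjusted p = 5.01e-08) and −0.09 for imatinib against siNC (adjusted p = 0.204). HSPA9, the mitochondrial HSP70, was at 531, 388 and 549 CPM in siERRα, imatinib and siNC cells and fell with imatinib (log2 fold change −0.50, adjusted p = 6.78e-07), as did HSPA4, a relative of HSPH1 (−0.46, adjusted p = 1.83e-05). HSPA12B, a divergent family member at low counts, averaged 0.768 CPM in siERRα cells, 4.12 CPM in imatinib cells and 1.89 CPM in siNC cells, so it fell after knockdown (−1.30, adjusted p = 2.21e-05) and rose with imatinib (1.12, adjusted p = 5.33e-06). HYOU1, an exchange factor for BiP, rose after knockdown by 0.17 on the log2 scale (adjusted p = 0.0247), a call lost when siNC S1 or S2 or siERRα S4 or S6 was left out.

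Of 19 HSP90 family and cochaperone genes, 4 rose and 1 fell after knockdown, and 2 rose and 11 fell with imatinib. HSP90AB1, the constitutive partner of HSP90AA1, had 2739 ± 46.6 CPM in siERRα cells, 2252 ± 33.0 CPM in imatinib cells and 2604 ± 20.4 CPM in siNC cells (SD, n = 3 each) and fell with imatinib (log2 fold change −0.21, adjusted p = 0.0015), with 0.07 after knockdown (adjusted p = 0.303). STIP1, or HOP, which hands clients from HSP70 to HSP90, moved in opposite directions: it was at 611, 380 and 521 CPM in siERRα, imatinib and siNC cells, a log2 fold change of 0.23 after knockdown (adjusted p = 0.00258) and −0.46 with imatinib (adjusted p = 9.03e-07). CHORDC1, an HSP90-binding protein, was at 105, 55.4 and 89.7 CPM, with 0.23 after knockdown (adjusted p = 0.0225, not called without siNC S2 or siERRα S5) and −0.70 with imatinib (adjusted p = 2.96e-07). AHSA1, which speeds the ATPase of HSP90, fell with imatinib (−0.47, adjusted p = 1.27e-06), and PTGES3, the cochaperone p23, rose after knockdown (0.23, adjusted p = 0.00485).

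J-domain genes numbered 21, of which 4 rose and 1 fell after knockdown and 1 rose and 11 fell with imatinib. DNAJB11, which serves BiP in the endoplasmic reticulum, was at 444, 263 and 381 CPM in siERRα, imatinib and siNC cells (0.22, adjusted p = 0.0062 after knockdown; −0.53, adjusted p = 4.37e-07 with imatinib). DNAJA3, of mitochondria, rose after knockdown (0.25, adjusted p = 0.00351) and DNAJC18 fell (−0.49, adjusted p = 0.000123). DNAJC2, a ribosome-bound J-domain protein, fell with imatinib (−0.71, adjusted p = 5.73e-06), as did DNAJA2, a partner of HSPA8 (−0.42, adjusted p = 1.45e-05).

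Small heat shock proteins held the largest rise with imatinib among the network genes named. HSPB7, known from heart and muscle, had 34.3 ± 2.29 CPM in siERRα cells, 149 ± 3.64 CPM in imatinib cells and 45.6 ± 1.57 CPM in siNC cells (SD, n = 3 each), with log2 fold changes of −0.41 after knockdown (adjusted p = 8.54e-05) and 1.71 with imatinib (adjusted p = 3.84e-13). HSPB6, or HSP20, a protein of muscle, had 96.3 ± 11.7, 244 ± 19.2 and 109.6 ± 6.97 CPM in siERRα, imatinib and siNC cells and rose with imatinib (1.16, adjusted p = 1.43e-09), with −0.19 after knockdown (adjusted p = 0.0959). HSPB8, the partner of BAG3, fell in both, to 16.97 CPM in siERRα cells and 15.55 CPM in imatinib cells, against 23.53 CPM in siNC cells (−0.47, adjusted p = 0.000125, and −0.60, adjusted p = 4.31e-06). In this list 0 rose and 2 fell of 5 after knockdown, and 2 rose and 2 fell with imatinib.

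Of 9 nucleotide exchange factors and BAG proteins, 1 fell after knockdown, and 2 rose and 3 fell with imatinib. GRPEL1, the exchange factor of mitochondrial HSP70, was the one that fell after knockdown and fell with imatinib too, at 29.9, 32.6 and 45.7 CPM in siERRα, imatinib and siNC cells (−0.61, adjusted p = 4.42e-06, and −0.49, adjusted p = 2.3e-05). BAG2, an exchange factor of HSP70, fell with imatinib (−0.29, adjusted p = 0.000787) and SIL1, an exchange factor for BiP, rose (0.33, adjusted p = 0.000201).

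Chaperonins and prefoldin, which fold actin and tubulin in the cytosol or imported proteins in mitochondria, had 1 higher and 2 lower of 17 after knockdown, and 1 higher and 13 lower with imatinib. CCT5, a subunit of the cytosolic ring, was at 889, 558 and 818 CPM in siERRα, imatinib and siNC cells (0.12, adjusted p = 0.11 after knockdown; −0.55, adjusted p = 1.07e-07 with imatinib), and CCT2 and the prefoldin subunit PFDN2 fell with imatinib by 0.51 (adjusted p = 1.19e-06) and 0.56 (adjusted p = 9.83e-07) on the log2 scale. HSPE1, the lid of the mitochondrial chaperonin, fell in both, at 30.1, 30.3 and 42.1 CPM (−0.48, adjusted p = 6.8e-05, and −0.47, adjusted p = 4.16e-05), and so did CCT7 (−0.28, adjusted p = 0.00117, and −0.28, adjusted p = 0.000652). CCT6A rose after knockdown by 0.16 (adjusted p = 0.047), a call lost in 11 of the alternatives run.

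The heat shock factors other than HSF1 were at lower levels, and no difference in HSF2 or HSF4 was detectable at these counts. HSF2 was at 11.90, 12.99 and 13.07 CPM in siERRα, imatinib and siNC cells (−0.14, adjusted p = 0.286, and −0.01, adjusted p = 0.934). HSF4 averaged 0.310, 0.325 and 0.200 CPM, from 5 to 26 counts per library, with log2 fold changes of 0.61 (SE 0.51, adjusted p = 0.433) and 0.65 (SE 0.52, adjusted p = 0.342), and HSF5 had 0 counts in every library. HSBP1, which binds the HSF1 trimer, had log2 fold changes of 0.13 (adjusted p = 0.12) and 0.11 (adjusted p = 0.151). Its relative HSBP1L1 fell after knockdown (−0.60, adjusted p = 0.00141) and with imatinib (−0.33, adjusted p = 0.0359, not called without siNC S3 or imatinib S16). HSF2BP, a binding partner of HSF2, averaged 0.431, 0.281 and 0.562 CPM in siERRα, imatinib and siNC cells, from 9 to 29 counts per library. It fell with imatinib (log2 fold change −1.0004, SE 0.335, adjusted p = 0.0221), a call not followed in the alternatives. After knockdown its log2 fold change was −0.40 (SE 0.303, adjusted p = 0.387).

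Of 8 other genes known as stress-inducible HSF1 targets, 1 rose and 1 fell after knockdown, and 1 rose and 6 fell with imatinib. ZFAND2A, which is switched on by arsenite and heat, had 36.6 ± 0.667 CPM in siERRα cells, 18.1 ± 0.407 CPM in imatinib cells and 31.0 ± 0.858 CPM in siNC cells (SD, n = 3 each), with 0.24 after knockdown (adjusted p = 0.00893, and 0.0585 without siNC S3) and −0.78 with imatinib (adjusted p = 2.52e-08). SERPINH1, or HSP47, the collagen chaperone, had 1321 ± 25.3, 1971 ± 58.7 and 1743 ± 104 CPM in siERRα, imatinib and siNC cells, so it fell after knockdown (−0.40, adjusted p = 2.11e-05) and rose with imatinib (0.18, adjusted p = 0.0124). IER5, an immediate early gene whose product activates HSF1 (−0.42, adjusted p = 2.3e-05) and MRPL18 (−0.37, adjusted p = 0.000108) fell with imatinib and had 0.10 (adjusted p = 0.288) and 0.10 (adjusted p = 0.25) after knockdown.

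For siERRα against imatinib, the network genes furthest apart were HSPA12B (−2.43, adjusted p = 6.14e-10), HSPB7 (−2.12, adjusted p = 2.04e-14), HSPB6 (−1.34, adjusted p = 8.44e-11) and ZFAND2A (1.01, adjusted p = 2.93e-10) of those named. CHORDC1 (0.93, adjusted p = 3.31e-09), DNAJC2 (0.89, adjusted p = 1.89e-07), DNAJB11 (0.75, adjusted p = 2.06e-09), DNAJC7 (0.70, adjusted p = 9.41e-08) and CCT5 (0.67, adjusted p = 3.86e-09) were higher in siERRα cells. HSPA5 (−0.56, adjusted p = 4.99e-08) and SERPINH1 (−0.58, adjusted p = 4.11e-08) were lower in siERRα than in imatinib cells. No heat shock factor or regulator on the list of 5 differed by this test.

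For each of the 6 genes whose group means differed by at least 0.5 on the log2 scale, the nearest in pattern of the 13282 tested genes with a mean of at least 1 CPM were found by the root mean square difference of their centred log2 levels over the 9 libraries. HSPA6 came nearest to ATF3 (0.248), a stress-induced transcription factor, then TNFRSF11B (0.301) and INHBA (0.308). HSPA1A came nearest to HHEX (0.0890), VEGFA (0.0995) and FAS (0.108), and HSPA1B to HBEGF (0.0948), HOXB9 (0.127) and BLACAT1 (0.137). DNAJB1 came nearest to PFDN2 (0.0412), HSPH1 to NSUN2 (0.0259) and BAG3 to HES1 (0.0627).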

How the data were processed

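Per the labels, RNA of GIST-T1 cells was sequenced as paired reads, aligned with STAR 2.7.3a to GRCh38 and counted with featureCounts 2.0.1. The values deposited by the authors are whole-number counts per gene, not normalized. Not given in the sources used here are the annotation, whether strand was used, and how reads mapping to several genes were treated. Counts were scaled by TMM and filtered with filterByExpr (minimum count 10, minimum total 15), and tested with edgeR 4.0.16 (quasi-likelihood, robust, 9 libraries in 1 fit, R 4.3.3) with Benjamini-Hochberg adjustment over all genes tested. The pipeline was tested on simulated data. The members and lists were chosen with earlier results of these data known. Named were all 10 genes, ESRRA, near copies, the heat shock factor list, up to 3 called genes with the smallest p per list and comparison (mean of at least 1 CPM), and the 3 nearest genes in pattern (prior count 2). Positions came from GENCODE 44 and promoters from RefSeq. Libraries of a group differed beyond sampling noise (chi-square per degree of freedom 3.77 to 16.5), so no library was a copy of another's counts; repeat preparations of 1 RNA cannot be told apart this way. Alternatives used DESeq2 1.42.0, limma 3.58.1, other filters, thinning to the smallest library, and leaving out each library.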

Additional observations from a re-analysis of the deposited data

How the results depend on the processing

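Depth limits the low genes most: HSF4, HSF2BP, HSPA7 and HSPA12B lay near or below 1 CPM in some or all groups. Where a log2 difference of 0.5 or more was required as well, the calls dropped to 1233 genes for siERRα against siNC, 2988 for imatinib against siNC and 4468 for siERRα against imatinib, compared with 4064, 7072 and 8865 without it, and the other chaperone genes called dropped to 4, 18 and 22, compared with 22, 66 and 64. This follows from the threshold itself. Leaving out 1 library at a time gave 2910 to 4401, 5794 to 7780 and 8203 to 8934 genes in these comparisons, and 17 to 22, 58 to 69 and 56 to 64 other chaperone genes. Of the alternative fold changes of the 10 genes, 512 stayed within the spread between replicates and 4, all from adding HSPA1A and HSPA1B, did not. The alternatives reuse the same libraries, and leaving out 1 library of a group can hardly move a fold change by that much. The 512 therefore say little of how stable these fold changes are. Among the other chaperone genes, single calls were followed only for the called genes with the smallest p per list and comparison. Of the alternatives for these picked genes, 1000 kept their call and 20 lost it, and 0 turned round. Being picked for the smallest p, they do not show how stable the calls of the remaining chaperone genes were. The titles do not pair the libraries. Deviations of libraries in the same place of each group correlated between −0.0996 and 0.147, and those in different places between −0.133 and 0.0926. With that place as a replicate block, 3652, 6764 and 8612 genes and 19, 64 and 63 other chaperone genes were called.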
